A study of Mus musculus with 17 samples.

Results

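The genes described are the cytochrome P450s of families 1, 2 and 3 in mouse liver, chosen by name: a symbol made of Cyp, a family number from 1 to 3, a subfamily letter and a member number. This rule found 58 of the 48440 genes in the authors' table, and 45 of the 58 had a mean normalized count of at least 10 over all libraries and were tested. The other 13 (Cyp2b19, Cyp2b23, Cyp2c65, Cyp2c66, Cyp2d34, Cyp2j7, Cyp2j8, Cyp2j11, Cyp2j12, Cyp2j13, Cyp2t4, Cyp2w1 and Cyp3a57) stayed below that level, and Cyp2j7, Cyp2j12, Cyp2j13 and Cyp2w1 were listed at 0 in every library. Symbols with a trailing letter, such as Cyp3a41a and Cyp3a41b, and pseudogenes fall outside the rule.

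P450s of these families are heme enzymes of the endoplasmic reticulum that insert oxygen into drugs, steroids and arachidonic acid, and hepatocytes hold most of them. They take electrons from the reductase encoded by Por. Many of the rodent genes differ between males and females, because the sexes release growth hormone in different pulses and this sets the activity of the transcription factor STAT5 in hepatocytes. Others are induced by chemicals through the receptors AHR (Cyp1a), CAR (Cyp2b) and PXR (Cyp3a).

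Polyadenylated liver RNA was sequenced from young wild-type B6 mice aged 2 months (6 libraries: 4 male, 2 female), old wild-type B6 mice aged 2 years (5 libraries: 3 male, 2 female) and mice with a miR-29 transgene, also 2 months old (6 libraries: 5 male, 1 female). The promoter of the transgene, the miR-29 members it carries and the strain of the transgenic mice are not given in the labels. Batch A (10 libraries, TruSeq kit) and batch B (7 libraries, all male, NEBNext Ultra II kit) were sequenced at different sites. The labels do not tie each library to its own animal, so p-values measure the spread between these libraries, which may be technical. Albumin, the main secreted product of hepatocytes, lay between 992461 (young male 5) and 4468552 (transgenic male 1) normalized counts, and none of 8 hepatocyte markers was called in the transgene or the age comparison. The miR-29 precursor genes were at 0 in all libraries, so these data do not measure the transgene product.

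The sequences that the comparisons refer to are those of the mature miR-29 strands, of the few P450 messages that carry their seed match, and of promoters of near-identical P450 genes that behaved differently. The 3 mature strands share 1 seed, bases 2 to 8, shown in capitals (RefSeq, GRCm38.p6).
miR-29a-3p: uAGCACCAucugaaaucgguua
miR-29b-3p: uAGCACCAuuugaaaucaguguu
miR-29c-3p: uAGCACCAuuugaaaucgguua

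The seed match TGGTGCT was present in the 3′ UTR of 3 of 54 P450 genes with an annotated UTR of at least 30 bases (5.56%), against 2758 of 20874 genes in all (13.2%). UTR length was not matched between these shares, and a longer UTR has more room for a match. The 3 sites are shown on the message strand with the match in capitals, and lie at chr7:27036693-27036699 (+ strand, Cyp2a12), chr19:39390351-39390357 (- strand, Cyp2c38) and chr5:145436339-145436345 (- strand, Cyp3a16) of GRCm38 in the GENCODE M21 annotation.
Cyp2a12: gagagcctgaagTGGTGCTagaaggaaggt
Cyp2c38: acaagacagtccTGGTGCTtgctcaatacc
Cyp3a16: atcaagatgaaaTGGTGCTtaactgattga

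Of these 3 messages, Cyp2c38 rose in the transgenic livers, and Cyp2a12 and Cyp3a16 were not called in the comparison over both sexes. A 7-base match is a description of the message and not a measured site.

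Cyp2a4 and Cyp2a5, in the same cluster of P450 genes on chromosome 7, encode a steroid 15-alpha-hydroxylase and coumarin 7-hydroxylase. Stretches of 120 bases upstream of their start sites, at chr7:26307032-26307151 and chr7:26835178-26835297 (both + strand, GRCm38.p6), were identical at 117 positions. Capitals mark the 3 positions that differ.
Cyp2a4: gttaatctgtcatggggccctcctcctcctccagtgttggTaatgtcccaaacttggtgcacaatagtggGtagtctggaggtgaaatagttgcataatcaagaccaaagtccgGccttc
Cyp2a5: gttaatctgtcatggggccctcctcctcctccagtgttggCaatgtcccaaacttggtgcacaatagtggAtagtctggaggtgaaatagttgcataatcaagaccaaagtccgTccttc

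Cyp2c40, Cyp2c67, Cyp2c68 and Cyp2c69 also have near-identical stretches of 69 bases in their promoters. The stretches begin 75 (Cyp2c40) to 155 (Cyp2c67) bases before the start site, and identity over the rest of the promoters was not measured. Each promoter holds CAAAGTCCA, the core of elements bound by the hepatocyte factor HNF4, in capitals in the 69 bases shown. Each also holds ATTGATT, the core bound by HNF6, elsewhere in the window. Positions in GRCm38.p6, all on the - strand, are chr19:39812821-39812889 (Cyp2c40), chr19:39649129-39649197 (Cyp2c67), chr19:39741140-39741208 (Cyp2c68) and chr19:39886806-39886874 (Cyp2c69).
Cyp2c40: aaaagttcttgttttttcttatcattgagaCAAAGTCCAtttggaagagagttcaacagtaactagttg
Cyp2c67: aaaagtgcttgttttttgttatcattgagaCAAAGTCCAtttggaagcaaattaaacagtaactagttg
Cyp2c68: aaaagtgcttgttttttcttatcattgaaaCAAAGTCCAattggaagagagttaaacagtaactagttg
Cyp2c69: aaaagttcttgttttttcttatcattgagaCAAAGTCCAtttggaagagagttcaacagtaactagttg

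The stretch of Cyp2c40 and that of Cyp2c69 were identical, and Cyp2c67 differed from them at 6 of 69 positions (91.3% identical). Of 50 member promoters in RefSeq windows of 300 bases (250 before the start site and 50 after), 8 held CAAAGTCCA on either strand (16%), against 0.477% of 27025 promoters in all. ATTGATT was in 8 of the 50 (16%), against 2.97% of all. The promoters of Cyp2c40, Cyp2c67, Cyp2c68, Cyp2c69 and Cyp3a16 held both motifs. The STAT-type palindrome TTCNNNGAA was in 4% against 8.47%, and the AHR core GCGTG in 18% against 32.5%. Many of these promoters are copies of one another, so the member shares do not come from independent sequences.

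The P450s of families 1 to 3 took between 0.437% (transgenic male 6) and 3.01% (the transgenic female) of a library's summed normalized count. Batch B libraries held less than batch A libraries in young wild type, with 0.774% and 0.661% in the batch B males against 1.59% and 1.65% in the batch A males. Per kilobase of exon, Cyp2e1, which oxidizes ethanol and acetaminophen, had the highest mean over all libraries (66156 normalized counts per kb), followed by Cyp2a5 (20366 per kb), Cyp2d10 (12664 per kb) and Cyp2d26 (12435 per kb). Without the transgenic female, in which Cyp2a5 stood at 323515 normalized counts, the mean of Cyp2a5 was 11885 per kb and lay below those of Cyp2d10 (12866 per kb) and Cyp2d26 (12632 per kb), a comparison added after the values were seen. The genes are clustered, with 15 members each on chromosomes 7 and 19 and 8 each on chromosomes 4, 5 and 15. Close copies share sequence: 36.1% of the 50-base windows of the Cyp2a4 transcript also occur in Cyp2a5, 46.3% of those of Cyp2c69 occur in Cyp2c40, and 25% of those of Cyp3a25 occur in Cyp3a59. How reads were divided between such copies is not given in the sources used here, so the value of a single copy is uncertain.

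**Figure D1:**
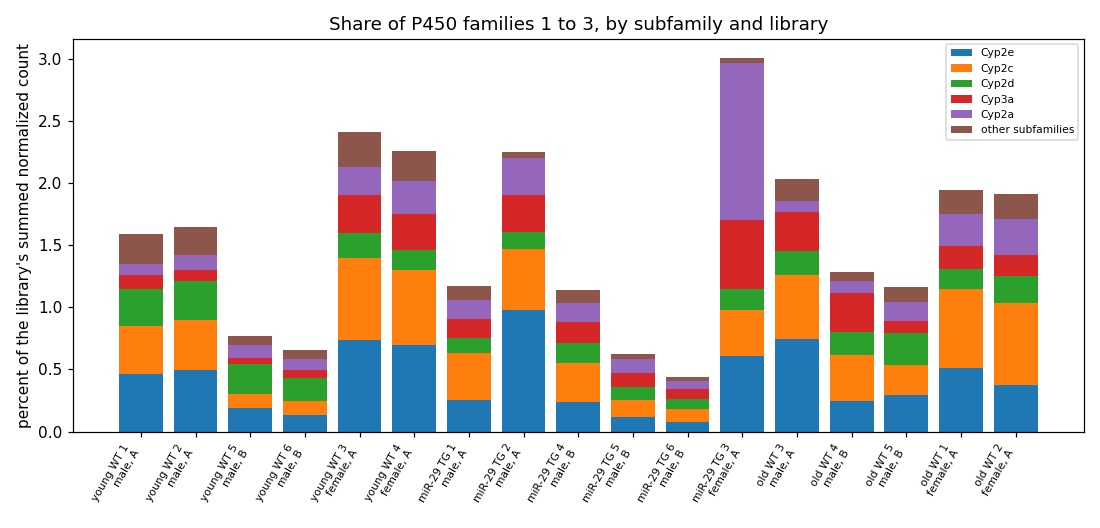
Stacked bars give the percent of each library's summed normalized count (vertical axis) taken by the 5 largest P450 subfamilies and the rest, with libraries on the horizontal axis by group, sex and batch (A or B). The transgenic female, at 3.01% in all, stands out through Cyp2a (1.27% of its total), and the batch B young males hold less than the batch A young males.

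Between young females and young males, 12 of the 45 genes differed. A gene is said to rise, fall or be called where limma's Benjamini-Hochberg adjusted p over 14588 genes was under 0.05. Fold changes are differences of log2(normalized count + 1) ± SE. Females were higher for 10 genes (Cyp2a4, Cyp2b9, Cyp2b10, Cyp2b13, Cyp2c39, Cyp2c40, Cyp2c68, Cyp2c69, Cyp3a16 and Cyp3a44), where 0.37% of all genes were higher in females. Males were higher for Cyp2d9, a testosterone 16-alpha-hydroxylase, and Cyp2u1, a fatty acid hydroxylase, where 0.308% of all genes were lower in females. The largest difference was that of Cyp2b13 (log2 difference 10.76 ± 1.19, adjusted p = 0.000391). It stood at 6.97, 0, 4.86 and 0 normalized counts in the 4 young males and at 5792 and 4695 in the 2 young females. The count of 12 was 4 when either young female, library 3 or library 4, was left out.

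In transgenic males most female-biased P450s rose, in the single transgenic female most of them lay below the young females, and over both sexes several other P450s fell. With both sexes in 1 fit, adjusted for batch and sex, 6 of 45 genes rose (2.89% of all genes rose) and 11 fell (3.83% of all genes fell). The 6 that rose were Cyp2a4, Cyp2b9, Cyp2b13, Cyp2c38, Cyp2c39 and Cyp3a59. The 11 that fell were Cyp1a2, Cyp2c44, Cyp2c55, Cyp2c67, Cyp2d9, Cyp2d12, Cyp2d40, Cyp2f2, Cyp2j5, Cyp2j6 and Cyp2u1. The median log2 fold change of the 45 was -0.13, against 0.0058 over all genes tested. In bulk tissue, fewer cells of a type and less RNA per cell cannot be told apart. Without the transgenic female (replicate 3) 12 genes rose in place of 6. Within batch A alone 3 rose and 6 fell, within batch B alone 4 rose and 2 fell, and a test of the difference between batches called none of the 45 (limma, 5 at an unadjusted p under 0.05, against 0.5% of all genes called; 1 was called without transgenic male 1).

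Among males the split was plainer: 14 of 45 genes rose with the transgene (3.75% of all genes) and 12 fell (4.36% of all genes). Of 12 P450s known as female-biased in mouse liver, 11 rose in transgenic males, and the exception was Cyp2g1, an olfactory-type P450 (log2 fold change -0.44 ± 0.87). This list was chosen with earlier results of these data known, so the count is a description and not a test. Of the 12, 9 were called higher in young females than in young males here. The median of the 12 was 5.14, and 8 of the 12 had all 5 transgenic males above all 4 young wild-type males. Over the 45 genes the transgenic males lay wholly above the young males for 10, where 2.85% of all genes did so, and wholly below for 8, where 3.44% of all genes did so. The same young males are the low end of the sex comparison above, so the 2 comparisons share their controls.

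**Figure D2:**
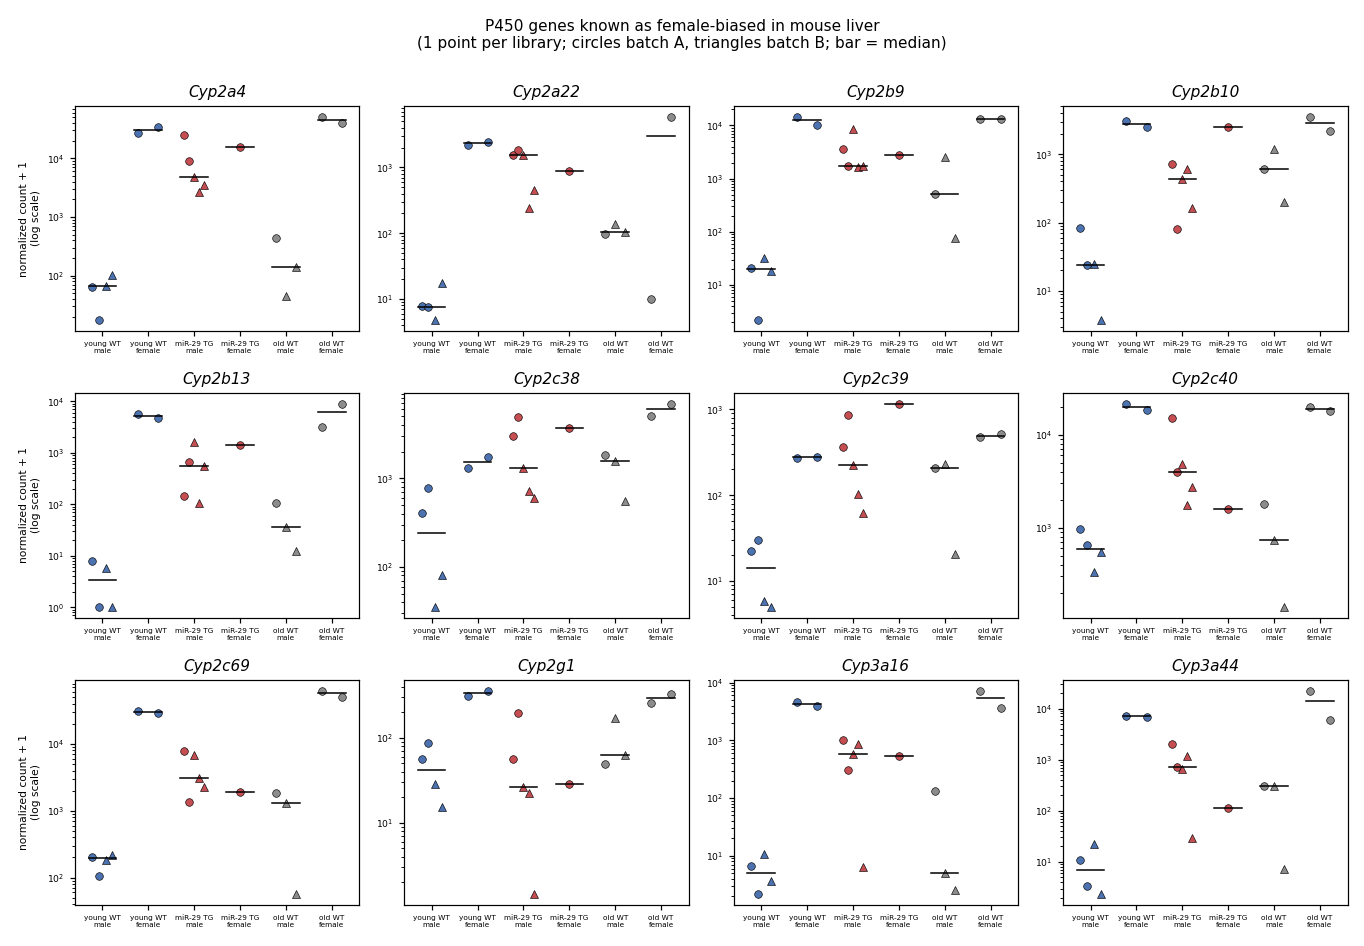
Each panel plots 1 gene of the 12 P450s known as female-biased, with normalized count + 1 on a log axis and libraries grouped by group and sex (circles batch A, triangles batch B, bars medians). Transgenic males lie above young males in most panels, such as Cyp2a4 (2677 to 24871 against 16.2 to 101). The transgenic female lies below both young females in 10 of the 12, where 43.9% of all genes do so.

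In the Cyp2a subfamily, which oxidizes steroids and coumarin, Cyp2a4 was the gene that rose. It stood at 63.4, 16.2, 66.5 and 101 normalized counts in young males and at 26753 and 33967 in young females. Transgenic males had 24871, 8980.02, 4836, 2677 and 3484, and the transgenic female 15627. All 5 transgenic males were above every young male and below both young females (log2 fold change in males 7.01 ± 0.65, adjusted p = 1.92e-05; with both sexes 5.29 ± 1.01, adjusted p = 0.00406). Within batches the value was 4.94 ± 1.69 in A, which holds both sexes, and 5.42 ± 0.51 in B, which is all male.

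Cyp2a22 followed in males, from 3.72 to 16.3 in young males to 242 to 1862 in transgenic males (6.76 ± 1.26, adjusted p = 0.00403). Cyp2a5, whose promoter stretch differs from that of Cyp2a4 at the 3 positions shown, was not called (1.22 ± 0.56 over both sexes, adjusted p = 0.219; 0.57 ± 0.48 in males, adjusted p = 0.512). Its level stood apart in 1 library: 323515 in the transgenic female against 20088 and 26365 in the young females. The transgenic males had 13351, 70850, 26137, 30825 and 13425, a range that overlaps that of the young males (8036 to 30830.1). Cyp2a12, which carries a miR-29 seed match, was not called (-0.48 ± 0.20, adjusted p = 0.161).

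The Cyp2b genes, of which Cyp2b10 is the classical phenobarbital-inducible target of CAR, were nearly silent in young males. Cyp2b9 stood at 20.2, 1.16, 30.8 and 17 there, at 14649 and 10319 in young females, and at 3547, 1757, 8425, 1617 and 1699 in transgenic males. The transgenic males lay between the young males and the young females, with no overlap on either side (7.66 ± 0.89 in males, adjusted p = 0.000164). Cyp2b13 rose by 7.26 ± 0.88 in males (adjusted p = 0.000189) and Cyp2b10 by 3.94 ± 0.80 (adjusted p = 0.00764). Cyp2b10 reached 79.2 to 730 in transgenic males, and the lowest of these, replicate 2, overlapped young male 1 at 82.2. The transgenic female, at 2808 for Cyp2b9, 1445 for Cyp2b13 and 2488 for Cyp2b10, lay below both young females for each gene. In the fit over both sexes, which takes 1 effect for males and females, Cyp2b9 (5.32 ± 1.25, adjusted p = 0.0164) and Cyp2b13 (5.13 ± 1.18, adjusted p = 0.0144) rose. Cyp2b10 was not called there (2.79 ± 0.88, adjusted p = 0.0676). Both calls were lost without young male 6, at adjusted p = 0.0511 for Cyp2b9 and 0.0502 for Cyp2b13.

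The Cyp2c subfamily, which holds arachidonic acid epoxygenases and hydroxylases as well as the retinoic acid hydroxylase Cyp2c39, moved both ways. In transgenic males 6 of 13 tested Cyp2c genes rose (Cyp2c37, Cyp2c38, Cyp2c39, Cyp2c40, Cyp2c68 and Cyp2c69) and 3 fell (Cyp2c44, Cyp2c55 and Cyp2c67). Cyp2c39 stood at 21.6, 28.9, 4.86 and 3.93 in young males, at 271 and 279 in young females, and at 367, 855, 223, 101 and 61.7 in transgenic males. The transgenic males were all above the young males and spread to both sides of the young females (4.39 ± 0.55 in males, adjusted p = 0.000242; 3.75 ± 0.56 over both sexes, adjusted p = 0.000606). Cyp2c38, which carries a miR-29 seed match, rose over both sexes by 2.88 ± 0.43 (adjusted p = 0.000585). Its value was 2.24 ± 0.40 within A, which holds both sexes, and 3.96 ± 0.58 within B, which is all male.

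The 4 genes with the near-identical promoter stretches did not move as 1. In males Cyp2c69 rose by 4.40 ± 0.80 (adjusted p = 0.00349), Cyp2c40, a hydroxylase of arachidonic acid, by 3.02 ± 0.49 (adjusted p = 0.00161) and Cyp2c68 by 0.83 ± 0.21 (adjusted p = 0.0254). Cyp2c67 fell by 2.42 on the log2 scale (SE 0.32, adjusted p = 0.0003). Its values were 10693, 13785, 4620.3 and 7129 in young males, 4631 and 4199.96 in young females, and 2665, 2959.9, 1136, 605 and 1089 in transgenic males. Every transgenic library, the female at 1099.8 included, was below every young library. These 4 transcripts share 35.6% to 46.3% of their 50-base windows with the single closest member of the set. With all other genes counted, the shares were 43.3% (Cyp2c68) to 72.1% (Cyp2c40). Part of the contrast between the 4 genes may thus depend on how shared reads were assigned, which was not tested.

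Cyp2c44, an epoxygenase of arachidonic acid, fell by 2.11 on the log2 scale over both sexes (SE 0.35, adjusted p = 0.00128). It had 9763, 10973, 2153 and 2666 in young males and 3477, 2680.4, 1842, 649.95 and 488 in transgenic males. The male ranges overlap, and young batch A males stood well above young batch B males. Cyp2c55 fell by 2.58 (SE 0.48, adjusted p = 0.00345), from 83.7 to 196 in young males to 4.68 to 88.9 in transgenic males. Cyp2c29, one of the more abundant members, and Cyp2c70, which forms the muricholic acids of mouse bile, were not called (-0.42 ± 0.35, adjusted p = 0.546, and -0.47 ± 0.24, adjusted p = 0.27).

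In the Cyp3a subfamily, which handles steroids and many drugs, all 6 tested genes had a fitted change above 0, and Cyp3a59 rose (2.44 ± 0.44, adjusted p = 0.00276). Cyp3a59 stood at 158, 203, 121 and 215 in young males, at 620.3 and 696 in young females and at 1612, 1219.7, 1393, 652 and 423 in transgenic males. In males the female-biased Cyp3a44 (6.42 ± 1.19, adjusted p = 0.00403) and Cyp3a16 (5.87 ± 1.25, adjusted p = 0.00981) also rose. Transgenic male 6 stood apart for both, with 28.6 and 5.37 against at least 663 and 309 in the other 4 transgenic males. Cyp3a11, the main PXR-inducible drug-metabolizing form, was not called (0.54 ± 0.49, adjusted p = 0.591), nor were Cyp3a13 (1.31 ± 0.42, adjusted p = 0.0688) and Cyp3a25 (0.85 ± 0.32, adjusted p = 0.123). For Cyp3a13 the transgenic males (6537 to 21049) nevertheless lay wholly above the young males (2859 to 5121). The authors' deposited table (DESeq2) gave log2 fold changes of 0.76 for Cyp3a11 (adjusted p = 0.00427) and 1.48 for Cyp3a13 (adjusted p = 1.88e-06). For Cyp3a25 it gave 0.99 (adjusted p = 0.00646).

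**Figure D3:**
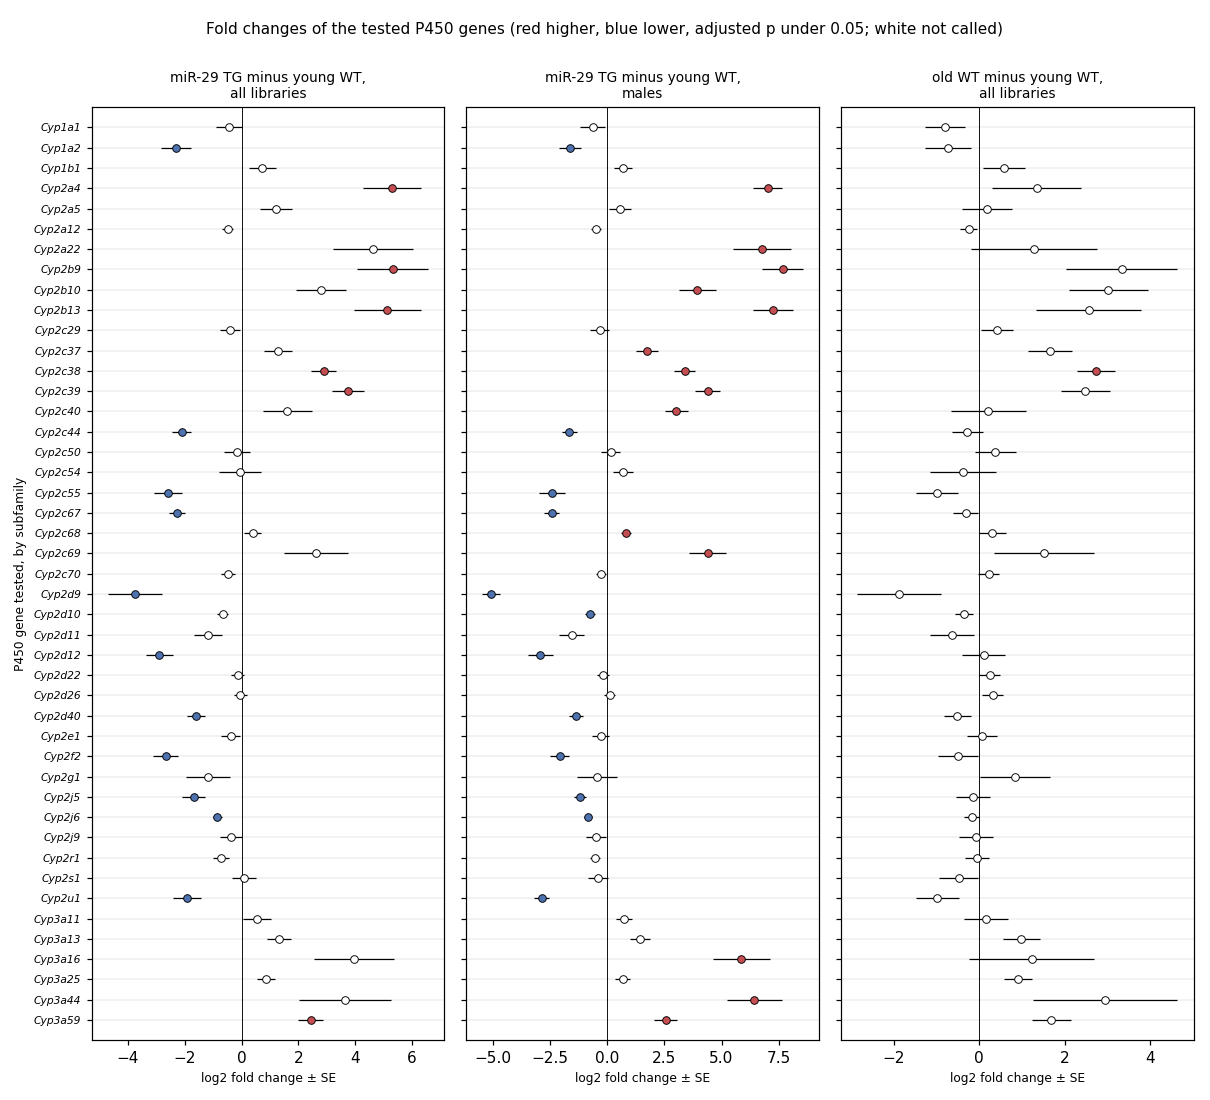
Points are fitted log2 fold changes with SE (horizontal axis) of the 45 tested genes (vertical axis, by subfamily), for transgenic against young wild type over all libraries, the same in males, and old against young wild type; red and blue mark called genes and white those not called. The Cyp2b genes lie to the right of 0 in all 3 panels and the Cyp2d genes mostly to the left in the first 2, and Cyp2c38 is the only filled point of the age panel.

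Among the genes that fell, Cyp2d9 changed most. It stood at 46403, 49112, 50489 and 31761 in young males, at 2573 and 1056 in young females, and at 1219, 2439, 868, 1258 and 1048 in transgenic males. The transgenic males were at or near the female level, with no overlap with the young males (log2 fold change in males -5.06 ± 0.39, adjusted p = 5.82e-06). Cyp2u1 stood at 677, 755, 1112 and 1128 in young males, 93.7 and 71.8 in young females, and 119, 102, 146, 126 and 169 in transgenic males, which lay far below the young males and just above the young females (fell by 2.84, SE 0.33, adjusted p = 0.000164). The transgenic female did not go with the males: at 5443 for Cyp2d9 and 167 for Cyp2u1 it lay above both young females. In the fit over both sexes, which takes 1 effect for males and females, both genes were called. The log2 fold changes were -3.76 for Cyp2d9 (SE 0.95, adjusted p = 0.0251) and -1.91 for Cyp2u1 (SE 0.49, adjusted p = 0.0275). Each call was lost when any 1 of 6 libraries was left out (young males 1, 2, 5 and 6 and transgenic males 2 and 5), at adjusted p of at most 0.0651 for Cyp2d9 and 0.079 for Cyp2u1.

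Of 7 tested Cyp2d genes none rose, and Cyp2d12 (fell by 2.89, SE 0.49, adjusted p = 0.00169) and Cyp2d40 (fell by 1.60, SE 0.31, adjusted p = 0.00447) fell with Cyp2d9. Cyp2d12 is a low gene, with 5.94 to 37.3 in young libraries and 0 to 4.69 in transgenic libraries, and the ranges do not meet. Cyp2d10, at 21129 to 32599 in young males and 13706 to 19005 in transgenic males, was called in males (-0.75 ± 0.21, adjusted p = 0.0407) and not over both sexes (-0.66 ± 0.20, adjusted p = 0.0533). The transgenic female, at 15524, was below both young females as well. Cyp2d22, often set beside human CYP2D6, was not called (-0.13 ± 0.23, adjusted p = 0.808), nor was the abundant Cyp2d26 (-0.04 ± 0.23, adjusted p = 0.941).

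Several P450s that were not called between young females and young males fell too. Cyp2f2, which activates naphthalene, fell by 2.67 on the log2 scale (SE 0.45, adjusted p = 0.00151), with -3.61 ± 0.43 within A and -1.44 ± 0.60 within B. Its values were 36749, 38704, 12542 and 11594 in young males, 19962 and 14559.7 in young females, 7541, 3702, 10465, 3685 and 2262 in transgenic males and 604 in the transgenic female, so no transgenic library reached a young one. Within batch A the young males were above the young females for Cyp2f2 (fitted sex difference over both batches -0.80 ± 0.55, adjusted p = 0.747). Cyp1a2, which oxidizes caffeine and arylamines, fell by 2.30 (SE 0.52, adjusted p = 0.0133), from 5608 to 26305 in young males and 25008 and 30329 in young females to 1419 to 15019 in transgenic males and 988 in the transgenic female. Male ranges overlapped for Cyp1a2. The arachidonic acid epoxygenase Cyp2j5 (fell by 1.69, SE 0.39, adjusted p = 0.0141) and its relative Cyp2j6 (fell by 0.86, SE 0.16, adjusted p = 0.00396) fell as well.

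**Figure D4:**
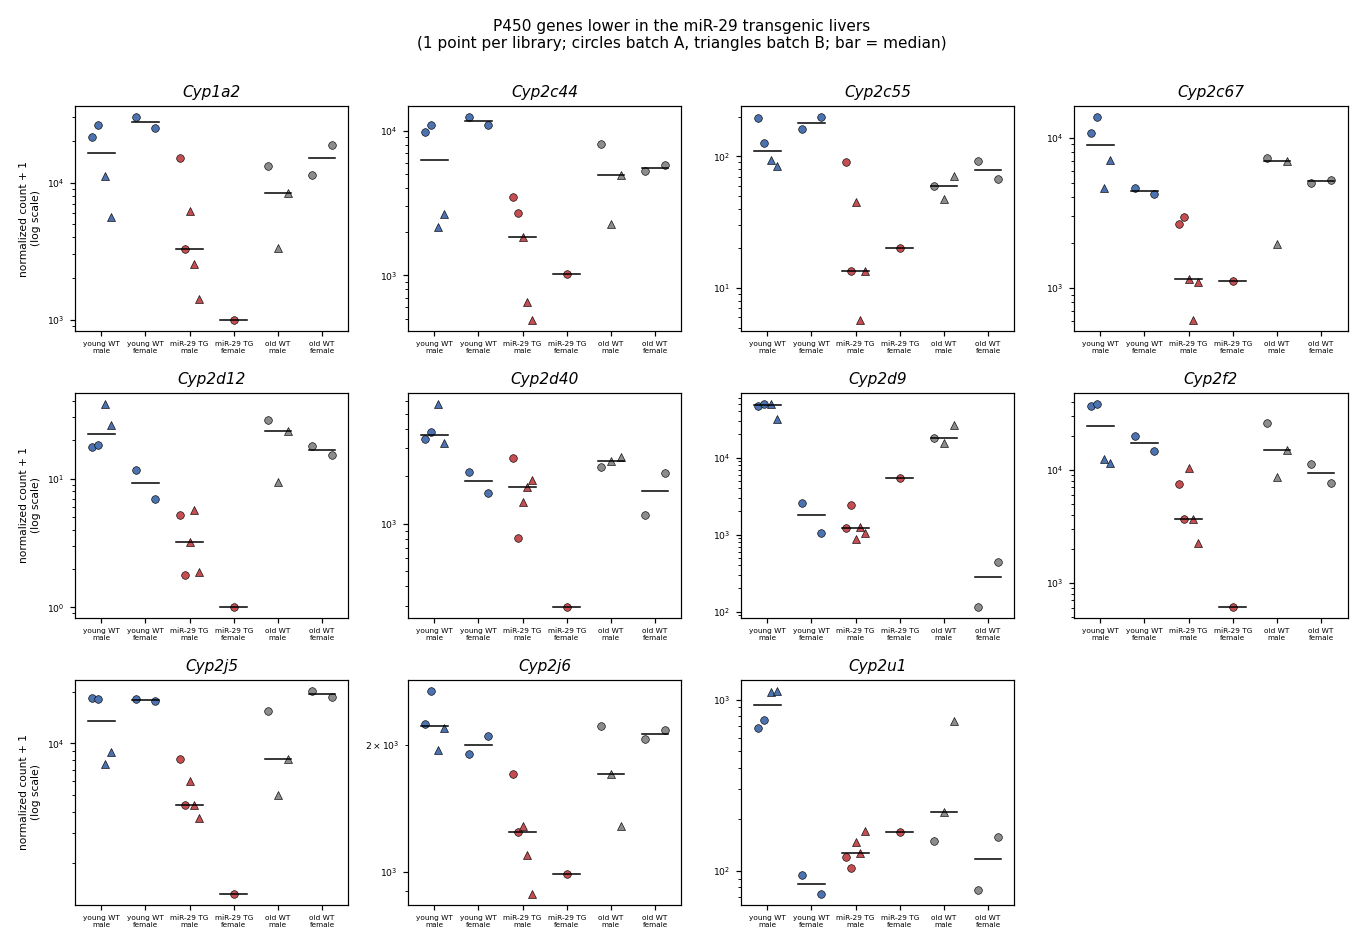
Each panel plots 1 of the 11 P450 genes that fell in transgenic livers, with normalized count + 1 on a log axis and libraries by group and sex (circles batch A, triangles batch B, bars medians). For Cyp2d9 the 5 transgenic males (868 to 2439) sit beside the young females (1056 and 2573), and for Cyp2f2 all 6 transgenic libraries lie below all 6 young ones. For Cyp2d9 and Cyp2u1 the transgenic female lies above both young females.

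Several members with other roles were not called with the transgene in the fit over both sexes. Cyp2e1 ranged from 29595 to 319874 in transgenic males and from 54479.8 to 190654 in young males (-0.38 ± 0.34, adjusted p = 0.571). Cyp1a1, the AHR-inducible form, was low everywhere, at 10.4 to 65.4 in all 17 libraries (-0.46 ± 0.46, adjusted p = 0.627). Cyp1b1, an estrogen hydroxylase (0.73 ± 0.47, adjusted p = 0.408), and Cyp2s1 (0.08 ± 0.43, adjusted p = 0.944) were low and not called. Cyp2r1, the vitamin D 25-hydroxylase, had 241 to 489 in transgenic males and 331 to 631 in young males (-0.72 ± 0.27, adjusted p = 0.125). Its level was 118 in the transgenic female against 357 and 394 in young females. The authors' deposited table (DESeq2) gave a log2 fold change of -0.73 for Cyp2r1 (adjusted p = 0.0419).

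The single transgenic female lay below both young females, not above them, for 10 of the 12 known female-biased genes. Over all 45 genes it lay below both for 29 (43.9% of all genes did so) and above both for 13 (44.7% of all genes). With 1 library on 1 side, such shares are large for any gene. The summed level of the 8 hepatocyte markers in the transgenic female was 2129940, the lowest of the 17 libraries. It was 4326080 and 4445200 in the young females. The part of this difference in the P450 values was not tested. Cyp2c69 stood at 1906 in the transgenic female against 31249 and 29367 in young females, and Cyp3a44 at 111 against 7115 and 6908. An interaction term of transgene and sex was called for 10 of 45 genes, against 1.3% of all genes. With 1 transgenic female, this test assumes that such libraries vary as those of the other groups do, so it compares this library with the rest and not transgenic females in general. The term was below 0 for Cyp2a4, Cyp2b9, Cyp2b13, Cyp2c40, Cyp2c68, Cyp2c69, Cyp2j5 and Cyp3a44 and above 0 for Cyp2d9 and Cyp2u1. Cyp2d9, for example, was at 5443 in the transgenic female against 2573 and 1056 in the young females (difference of log2 fold changes 6.78 ± 0.80, adjusted p = 0.0014). This count was 1 without young female 3 and 2 without young female 4.

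With age, Cyp2c38 was the only one of the 45 genes that passed the test. It stood at 401, 774, 33.9 and 80.9 in young males and 1823, 1573 and 553 in old males, and at 1292 and 1724 in young females and 5024 and 6966 in old females. Both old females were above both young females, and 1 old male (replicate 5) lay within the range of the young males (2.74 ± 0.44, adjusted p = 0.0161; 1.95 ± 0.40 within A and 4.13 ± 0.64 within B). The 1 gene that rose compares with 0.096% of all genes, and none fell where 0.048% of all genes fell (limma, 0 of 45 lower at an unadjusted p under 0.05, 8 higher). Without old female 2 the call was lost (adjusted p = 0.0602), and without old male 5 there were 2 rises. The median log2 fold change of the 45 was 0.21, against -0.0027 over all genes, and the age and transgene comparisons use the same young libraries.

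Old males were mixed. In a fit by sex, 5 genes rose in old males (Cyp2b9, Cyp2b10, Cyp2c37, Cyp2c38 and Cyp2c39, 0.864% of all genes) and Cyp2u1 fell (0.871% of all genes). Cyp2b9 stood at 502, 2550 and 74.5 in old males against at most 30.8 in young males (5.06 ± 1.02, adjusted p = 0.0273). Cyp2d9 stood at 18173, 15439 and 26847, below all young males (at least 31761), and was not called (-1.10 ± 0.44, adjusted p = 0.134). Wholly above the young males lay 4 of 45 genes (3.86% of all genes) and wholly below 3 (3.48% of all genes), shares near or moderately above those of all genes. The count of 5 rises was 12 without old male 5, 10 without transgenic male 4, 3 without old male 3, 2 without old male 4 or young male 2, and 1 without young male 5 or 6. The fall of Cyp2u1 was the single one, there were 2 falls without old male 5, and none without any 1 of 8 libraries (young libraries 2 to 6, transgenic male 5, old males 3 and 4).

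Old males 3 and 4 were both above old male 5 for 9 of the 12 known female-biased genes, a count made after the values were seen, and not for Cyp2a4, Cyp2a22 and Cyp2g1. Cyp2c39 was 206 and 230 against 19.9, while Cyp2a22 was 97.5 and 135 against 104. Cux2, a female-biased repressor of male-biased liver genes, was 465 and 1574 against 28.7. The summed level of 12 acute-phase genes was 2424280 and 1728400 in old males 3 and 4 against 432366 in old male 5. The part of the acute-phase response in the P450 values was not tested.

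In old females, none of the 45 genes passed the test against young females (limma, 5 at an unadjusted p under 0.05, 0.00685% of all genes called). Cyp2b9 (13170.4 and 13261 against 14649 and 10319) and Cyp2c40 (19741 and 17935 against 21770 and 18652) were close to the young females. Cyp2a22 was at 9.06 in old female 1 and 5931 in old female 2, and Cyp2d9, at 112 and 444, was below both young females. Cyp2c54, which shares 17.5% of its 50-base windows with Cyp2c50, stood at 1001 and 572 in old females against 11777 and 10964 in young females, and at 15801, 10584 and 4674 in old males against 1136 to 8551 in young males. It was the only member whose age effect differed between the sexes (difference of log2 fold changes -5.63 ± 0.81, adjusted p = 0.0387, against 0.0137% of all genes), and it was picked out after its values were seen.

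Set directly against the old livers, the transgenic livers had no P450 called higher (limma, 3 of 45 at an unadjusted p under 0.05, where 0.713% of all genes were called higher) and 5 called lower (1.84% of all genes): Cyp2c44, Cyp2c67, Cyp2d12, Cyp2f2 and Cyp2j6. The largest was Cyp2d12 (fell by 2.99 on the log2 scale, SE 0.52, adjusted p = 0.0044), followed by Cyp2f2 (-2.17 ± 0.47, adjusted p = 0.0199) and Cyp2c67 (-1.96 ± 0.30, adjusted p = 0.00154). Cyp2a4 came near the threshold with a positive difference (3.95 ± 1.07, adjusted p = 0.0592). The count of higher genes was 3 without the transgenic female and 1 without old male 4. Leaving out old library 1, 3 or 5 left 3 genes lower, and leaving out transgenic male 1 gave 8. The call of Cyp2j6 was lost without any 1 of 14 libraries, that of Cyp2f2 without old library 1, 3 or 5 or the transgenic female, and that of Cyp2c44 without old male 5 (adjusted p = 0.0571).

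Partners and regulators of these enzymes were read from set lists. Of 6 electron donors and membrane partners, Por, the reductase shared by all microsomal P450s, rose with the transgene (1.44 ± 0.39, adjusted p = 0.0361), and Cyb5b (-1.32), Cyb5r3 (-1.64) and Pgrmc1 (-0.80) fell. Por reached 67625 in the transgenic female and 10920 to 29847 in transgenic males, against 6679 to 14153 in young libraries. Of 12 heme genes, the heme-degrading Hmox1 rose (2.25 ± 0.38, adjusted p = 0.00171) and Ppox, a late step of heme synthesis, fell (-0.79), while Alas1, the rate-limiting step, was not called (-0.44 ± 0.44, adjusted p = 0.623). With the transgene 2.89% of all genes rose and 3.83% fell. None of these 18 genes was called with age, where only 0.096% of all genes rose and 0.048% fell.

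Of 19 tested receptors and liver factors, Ppara fell with the transgene (-1.44 ± 0.37, adjusted p = 0.0284) where 3.83% of all genes fell, and 18 were not called, among them Ahr (-0.27 ± 0.36), Nr1i2, which encodes PXR (-0.19 ± 0.20), and Nr1i3, which encodes CAR (0.60 ± 0.22, adjusted p = 0.116). In males Nr1i3 rose (0.79 ± 0.20, adjusted p = 0.0257). Of 14 other CAR and PXR targets, the transporter Slco1a4 rose (2.65 ± 0.56) and Ces2a (-1.17) and Aldh1a1 (-1.79) fell, with a median of -0.66 for the list. Of 2 tested AHR targets, Nqo1 rose (0.96 ± 0.22, adjusted p = 0.0125). Nqo1 was also called higher in young females, and in old males, than in young males. Of 9 regulators of sex-biased genes, Cux2 rose (4.83 ± 0.88, adjusted p = 0.00272) and Ghr, the growth hormone receptor, fell (-1.55 ± 0.28, adjusted p = 0.00249). In the fit by sex, Trim24 also rose in transgenic males. In old males against young males, Cux2 and Trim24 rose and Bcl6 fell. Cux2 stood at 2.82 to 33.6 in young males, 288 and 307 in young females and 217 to 1134 in transgenic males, so the transgenic males lay above the young males and on both sides of the young females.

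Markers of other cells moved with the transgene. Of 10 tested neutrophil markers 9 rose, and their summed level was 30.1 to 498 in young libraries, 102 to 2251 in old libraries and 450.5 to 48419 in transgenic libraries. Ly6g was at 0 in all young libraries. Of 5 tested erythroid markers 3 rose, with sums of 9239 to 150808 in young, 11107 to 52471 in old and 19075 to 1455810 in transgenic libraries. Of 12 acute-phase genes 3 rose (Orm2, Lcn2 and Hp). The acute-phase sum was 355434 to 781882 in young and 527962 to 6093830 in transgenic libraries. None of 9 pericentral markers was called, and of 8 periportal markers only Asl rose. Of the remaining lists, Marco of 8 Kupffer cell markers, Stab2 of 6 endothelial markers and Ighm of 5 B and plasma cell markers rose, Spp1 of 5 bile duct markers fell, and none of 6 stellate cell markers was called. In the age comparison Ighm was the only marker called, where 0.096% of all genes rose and 0.048% fell. The part of these cells and of inflammation in the P450 values was not tested. The neutrophil sums of the 4 young batch A libraries were 30.1 to 94.8, and those of the 2 transgenic batch A males were 676 and 450.5.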

How the data were processed

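Liver RNA of 17 mouse libraries was analysed from the authors' deposited tables. The tools listed, per the submitters' processing notes, are DESeq2, Salmon (0.6.0) and STAR (2.5.3a), with mm10 as the build; what each did, which annotation was used and how strand was handled are not given in the sources used here. Each value is a normalized signal per gene, which the authors deposited under the name of normalized counts. Values did not fall on whole reads (47.2% to 69.3% of low values lay within 0.1 of a whole step), so depth is unknown and no count model was run. Library totals of the signal were 28077001 to 44543936, which are not depths. The authors' 2 deposited tables of comparisons give log2 fold changes, a test score and p-values, and served as an alternative.

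limma 3.58.1 (R 4.3.3) was fitted to log2(signal + 1) of the 14588 genes with a mean of at least 10, with group, batch and sex. The log2 scale with a pseudocount of 1 understates changes of low genes. Effects by sex came from a model of 6 group and sex means plus batch, and effects by batch from interaction terms. The code was tested on simulated data. Positions, lengths and UTRs are from GENCODE M21, and promoters and miRNAs from RefSeq (GRCm38.p6). The members, gene lists and tests were chosen with earlier results of these data known. Genes named are all called members, the highest member of each subfamily and a fixed list of 25, and of other lists the called genes, those of smallest p and Por, Ahr, Nr1i2, Nr1i3 and Alas1; Cyp2a12, Cyp2a22, Cyp2c37, Cyp2c54, Cyp2c68 and Cyp2d10 lie outside that rule and were named after their values were seen. Alternatives (pseudocount, filter, scaling, terms, subsets, replicate number as a block, each library left out, the authors' tables) are in the closing section.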

Additional observations from a re-analysis of the deposited data

Results flagged for a closer look

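In 5 of 108 group and gene combinations checked, 1 library stood far from the rest of its group; the 95% limit used flags about 1 in 20 groups by chance, and whether these flags are chance was not tested. Cyp1a1 was 10.45 normalized counts in young male 6 against 42 to 65.4 in the other young libraries. Cyp2c39 was 19.92 in old male 5 against 205.7 to 513.7 in the other old libraries, and Cyp3a59 was 150.3 in the same library against 1159 to 1752. Cyp2d40 was 1134 in old female 1 against 2105 to 2635. Cyp3a16 was 5.365 in transgenic male 6 against 308.7 to 1020 in the other transgenic libraries.

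For 10 members the interaction term of transgene and sex was called, given here as a difference of log2 fold changes, female minus male. The female side has 1 transgenic library, which is assumed to vary as those of the other groups do. It was -12.39 for Cyp3a44, -9.794 for Cyp2b9, -9.111 for Cyp2b13, -8.391 for Cyp2c69, -7.957 for Cyp2a4, -6.686 for Cyp2c40, -2.587 for Cyp2j5 and -2.094 for Cyp2c68. It was 6.783 for Cyp2d9 and 3.858 for Cyp2u1. Adjusted p lay between 0.001403 (Cyp2d9) and 0.03101 (Cyp2c68). The age effect differed between females and males for Cyp2c54, by -5.634 (adjusted p = 0.03871).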

How the results depend on the processing

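No direction of a called member reversed under the alternatives run. Another pseudocount, another scaling and no mean-variance trend moved the call of none of the 36 named members in the transgene or age comparison. With every library set to the same total, the median log2 change of all genes was 0.135 for the transgene and 0.131 for age, in place of 0.0058 and -0.00267.

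For the transgene, 6 members rose as reported, 0 without batch and sex terms, 12 in males only, 3 in batch A, 10 with only the groups compared and 16 in the authors' deposited table (4 to 12 leaving out 1 library). The 11 falls became 6 in batch A, 2 in batch B and 13 in that table (9 to 12 leaving out 1 library). For age, the 1 rise became 0 without batch and sex terms, in batch A, in batch B and with only the groups compared, 2 in males only and 7 in the authors' deposited table (0 to 2 leaving out 1 library). No fall with age became 2 in that table (0 to 0 leaving out 1 library). Against old livers, 0 higher members became 3 in males only and 1 in batch B (0 to 3 leaving out 1 library), and 5 lower became 1 without batch and sex terms, 3 in males only, 3 in batch A, 1 in batch B and 2 with only the groups compared (3 to 8 leaving out 1 library). For age in males, 5 rises became 2 without a filter and 2 in a fit of males only (1 to 12 leaving out 1 library), and the 1 fall became 0 in both (0 to 2). Leaving out 1 library gave 12 to 15 rises and 8 to 12 falls for the transgene in males, 4 to 13 sex differences, 1 to 12 sex-dependent and 0 to 1 batch-dependent transgene effects. Subsets hold fewer libraries; otherwise the cause was not tested. The sex-dependent effect has no value without the transgenic female.

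Libraries with the same replicate number did not deviate together (correlation -0.316 to 0.384 over 16 pairs, 7 above 0.1). With the replicate number as a block, 7 members rose and 11 fell with the transgene, 1 rose and 0 fell with age, and against old livers 0 were higher and 3 lower. The Cyp1a2 log2 fold change, transgene against young wild type, was no longer called in a fit of males only (adjusted p = 0.0794). Depth is unknown, and the 1 transgenic and 2 old females limit every statement on females.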
